A study of Mus musculus with 36 samples.

Results

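A set of 1367 distal regions of the mouse genome carried H3K27ac in crypts of both fed and fasted mice, whereas H3K9bhb was called there only after fasting. The regions were chosen by measured values, namely the deposited peak calls. Peaks of the 4 H3K27ac lists were merged where they overlapped or touched, which gave 43071 regions, of which 28547 were shorter than 15000 bp and met no H3K4me3 peak of any list. A region was then kept if it had H3K27ac in both fasted pools and in at least 1 fed pool, which 5781 did, and if H3K9bhb was called in both fasted pools without a peak in either fed pool. The 1367 regions are 23.6% of the 5781, and since the rule used these calls, this share is a description. H3K27ac, H3K9bhb and H3K4me3 at the regions were fixed by the choice, so tests are given only for H4K12bhb, H3K4me1, H3K79me2 and H3K27me3.

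Crypts were isolated from the whole small intestine of mice with free access to food (fed pools 1 and 4) or deprived of food for 24 h with free access to water (fasted pools 2 and 5). Each pool joined the crypts of 4 animals, so n = 2 pools per condition. The labels give all animals as wildtype, while the protocol names C57BL/6J mice and Lgr5EGFP-IRES-CreERT2/+ knock-in mice, both sexes, aged 6 to 12 weeks, without saying which strain or sex entered which pool. Trichostatin A (TSA), an inhibitor of histone deacetylases, was in the isolation buffers of both conditions. Chromatin of each pool was immunoprecipitated with antibodies to 8 histone marks, giving 32 peak lists on the mm9 build. Per the file names, fed pool 1 and fasted pool 2 belonged to run 10 and fed pool 4 and fasted pool 5 to run 11.

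Lysine β-hydroxybutyrylation (bhb) is a histone acylation whose acyl group derives from the ketone body β-hydroxybutyrate, which the liver releases during fasting. H3K9bhb lies at promoters and enhancers, and H4K12bhb is the same acylation on another histone. H3K27ac marks active promoters and enhancers, H3K4me1 enhancers, H3K4me3 promoters, H3K79me2 the bodies of transcribed genes, H3K27me3 Polycomb-repressed chromatin and H3K9me3 heterochromatin. A region with H3K27ac and without H3K4me3 therefore has the marks usually used to call a distal enhancer. No mm9 gene annotation was used here, so regions are named by position, the nearest genes were not analysed here, and the crypt identity of the tissue was not checked against marker genes.

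The lists differed widely in length, from 59 to 46499 peaks, and the read depth behind them is unknown. H3K9bhb lists held 19555 and 13923 peaks in fed pools 1 and 4 and 38934 and 37640 in fasted pools 2 and 5. H3K27ac lists held 27640 and 15504 fed peaks and 37974 and 35917 fasted peaks. H4K12bhb lists were closer in length, with 23073 and 16560 fed and 26252 and 20031 fasted peaks. The H3K4me1 and H3K79me2 lists of fed pool 1 held only 309 and 571 peaks, against at least 14129 in each of the other lists of these marks. When the 4 lists of H3K27ac and of H3K9bhb were each cut to equal numbers of top-scoring peaks, 197 regions met the rule, 71.6% of them on the 1367. Only 141 of the 1367 (10.3%) were met by these. The 197 were 8.95% of the fed-acetylated distal regions under that setting, against 23.6% in the main one. In bulk crypts, fewer cells with a mark and less of the mark per cell cannot be told apart.

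The 1367 regions had a median length of 3439 bp (quartiles 2513.5 and 4805.5 bp) and ran from 948 to 12461 bp. They lay between 3 other sets in length. The 1457 always-marked regions, equally distal and fed-acetylated but with H3K9bhb in all 4 pools, had a median of 6458 bp. The 326 never-marked regions, with H3K9bhb in no pool, had a median of 2167.5 bp. The 1281 distal regions in which both H3K27ac and H3K9bhb were called only after fasting had a median of 2453 bp. Longer regions have more room to meet a peak, so the comparisons of H4K12bhb and H3K4me1 with the always-marked and never-marked sets are also given for regions of 2000 to 5000 bp.

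Acetylation of the 1367 regions was present in fed crypts but narrower, as it was over all 5781. In fed pool 1, 1148 of the regions (84.0%) had an H3K27ac peak, and in fed pool 4, 527 (38.6%). Fed pool 1 alone supplied the fed call at 840 regions, fed pool 4 alone at 219, and both pools at 308. The rule therefore rested on 1 fed pool at most of the regions, and mainly on fed pool 1, whose H3K27ac list was the longer. Where called, H3K27ac peaks covered a median of 42.8% of the region in fed pool 1 and 33.0% in fed pool 4, against 82.7% and 88.3% in fasted pools 2 and 5. The best H3K27ac peak on a region was a median of 1232.5 and 1093 bp wide in fed crypts and 2175 and 2619 bp in fasted crypts. Whether fed peaks lay inside fasted ones was not measured. By their medians, fed peaks covered less of the merged region than fasted peaks, in both runs. The regions are unions of the peaks of all 4 lists, and the fasted H3K27ac lists were the longer ones, so this difference is a description. The never-marked regions had medians of 40.9% in fed pool 1 and of 70.1% and 87.0% in the fasted pools over all their members, against 37.4%, 82.7% and 88.3% over all of the 1367.

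**Figure D1:**
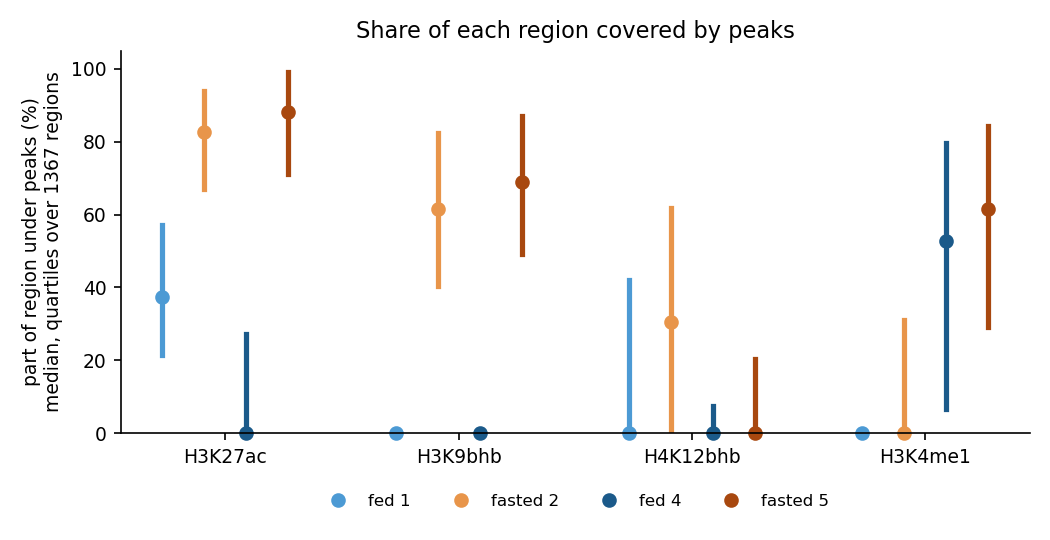
Part of each of the 1367 regions covered by peaks (%, vertical axis) for 4 marks in the 4 pools; points are medians and bars run from the first to the last quartile over regions. H3K27ac medians are 37.4% and 0% in fed pools 1 and 4 and 82.7% and 88.3% in fasted pools 2 and 5, and H3K9bhb is 0% in both fed pools by the rule.

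H3K9bhb of fasted crypts covered a large part of the acetylated interval but was of middling rank. It covered a median of 61.4% of the region in fasted pool 2 and 69.1% in fasted pool 5, with best peaks a median of 1731 and 2006 bp wide. The score of a peak is the authors' peak caller value, and a score percentile is the share of peaks in the same list with a lower score. The median percentile of the best H3K9bhb peak was 62.4 and 64.0 in fasted pools 2 and 5, against 88.0 and 86.5 at the always-marked regions. The 1367 regions thus ranked above the middle of each fasted list and below the always-marked regions, in a measure the rule used. Centres of the best H3K9bhb and the best H3K27ac peak were a median of 622.5 bp apart in fasted pool 2 and 713.5 bp in fasted pool 5. Across the 1367 regions, Spearman's rho between the 2 fasted pools was 0.36 for H3K9bhb percentiles and 0.57 for H3K27ac percentiles. Between H3K9bhb and H3K27ac within a pool it was 0.28 in fasted pool 2 and 0.24 in fasted pool 5. These are descriptions over regions that share their libraries, and the 2 marks ranked the regions only loosely alike.

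Around their centres, peaks of H3K27ac, of fasted H3K9bhb and of H4K12bhb were most frequent, and those of H3K4me1 in the 3 pools with longer lists. At the centre itself, H3K27ac peaks covered 49.7% and 19.8% of the regions in fed pools 1 and 4 and 89.3% and 92.5% in fasted pools 2 and 5. For H4K12bhb, which the rule did not use, the fed values were 29.7% and 12.9% and the fasted values 42.9% and 17.7%. At 2000 bp to the left of the centre H4K12bhb had fallen to 14.9%, 6.58%, 21.4% and 8.63% in fed pools 1 and 4 and fasted pools 2 and 5. H4K12bhb was therefore more frequent at the centre than 2000 bp to the left in all 4 pools, fed ones included. At 5000 bp to the right it was 18.0%, 11.1%, 22.7% and 11.6% in the same order, so fed pool 4 was little higher at the centre than there. The other sets had such a central rise too. In fed pool 1, never-marked regions had 16.3% at the centre and 5.21% at 2000 bp to the left, and always-marked regions 62.7% and 48.9%. H3K4me1 covered the centre of 57.8% of regions in fed pool 4 and 67.2% in fasted pool 5, but of only 22.2% in fasted pool 2 and 0.146% in fed pool 1, whose list was short.

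**Figure D2:**
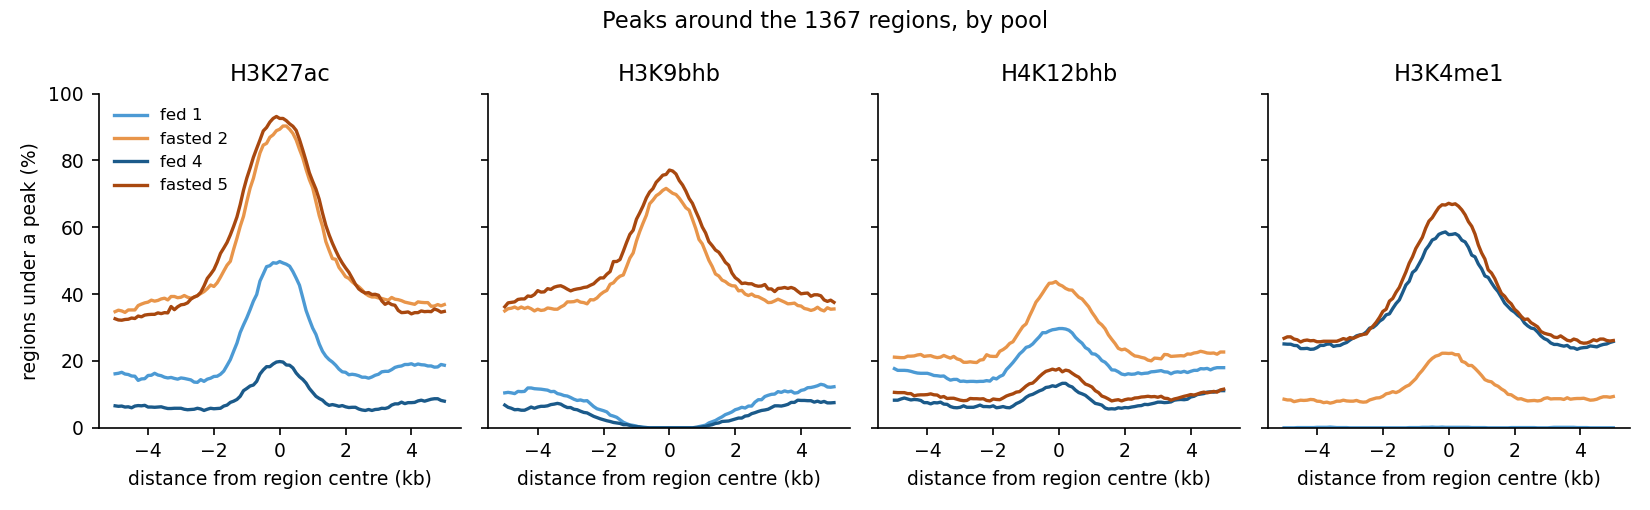
Share of the 1367 regions under a peak (%, vertical axis) by distance from the region's centre (kb, horizontal axis), with 1 line per pool for H3K27ac, H3K9bhb, H4K12bhb and H3K4me1. At the centre H4K12bhb reaches 29.7%, 12.9%, 42.9% and 17.7% in fed pool 1, fed pool 4, fasted pool 2 and fasted pool 5, and fed H3K9bhb is 0% there by the rule and rises with distance.

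The absence of fed H3K9bhb was local at many of the regions. The nearest H3K9bhb peak of either fed pool lay a median of 3233 bp from the region's edge, within 1000 bp at 350 regions (25.6%) and within 10000 bp at 976 (71.4%). The never-marked regions lay farther from fed H3K9bhb, with a median of 13614 bp, 10.1% within 1000 bp and 44.2% within 10000 bp. At 205 of the 1367 regions (15.0%) the merged H3K9bhb peak that crossed the region also held a fed peak just outside it. Part of the regions thus lay near chromatin that already had H3K9bhb peaks in fed crypts. Of all 5781, 68.9% had a fed peak within 1000 bp and 85.7% within 10000 bp. The 5781 include regions with a fed peak on them, which the rule kept out of the 1367. The nearest H3K4me3 peak was a median of 13252 bp away, close to the 13200 bp of all 5781 fed-acetylated distal regions, and 70 regions (5.12%) had one within 1000 bp. A promoter whose H3K4me3 was missed by every list would count as distal here, and fed pool 4 had an H3K4me3 list of only 295 peaks.

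The line between a gain of H3K9bhb and a weak fed peak was thin. A further 1653 regions of the 5781 had H3K9bhb in both fasted pools and in exactly 1 fed pool, 1134 of them in fed pool 1 and 519 in fed pool 4. Their median fed score was 76.4, and 372 of them had a fed score below 60, against the lowest score of 50 in the lists, which stands for a peak caller p of 1e-05. The region left out by the lowest fed score, 50.03, lay on chromosome 5 from 93157368 to 93160474. The region kept on the lowest fasted score, 50.02, lay on chromosome 19 from 3751976 to 3754755. The reverse pattern, H3K9bhb in both fed and no fasted pool, was found at 6 of the 5781. All 5781 were chosen for H3K27ac in both fasted pools, and the fasted H3K9bhb lists were the longer ones. This count is therefore a description and no measure of a change in 1 direction. The length limit removed none: the longest of the 1367, on chromosome 15 from 78358611 to 78371071, was 12461 bp long.

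H4K12bhb, the other β-hydroxybutyryl mark, was called at part of the 1367 regions in fed crypts too, at lower shares than over all 5781 regions. Fed pools 1 and 4 had it at 683 regions (50.0%, Wilson 95% interval 47.3% to 52.6%) and 349 regions (25.5%, 23.3% to 27.9%). Fasted pools 2 and 5 had it at 835 (61.1%, 58.5% to 63.6%) and 400 regions (29.3%, 26.9% to 31.7%). All 5781 fed-acetylated distal regions had it at 61.2% and 39.8% in fed pools 1 and 4 and at 63.8% and 35.9% in fasted pools 2 and 5, above the 1367 in each pool. The intervals cover counting error only. At the 1367 regions the fasted pool was the higher in each run, but fasted pool 5 lay below fed pool 1, so the conditions overlapped and the pools split by run more than by feeding. The fed mean was 37.7% ± 17.3 (SD, n = 2) and the fasted mean 45.2% ± 22.5 (SD, n = 2), a difference of 7.43 percentage points, 11.1 in run 10 and 3.73 in run 11. This was smaller than the spread between pools (two-sided exact permutation p = 0.667, 0.741 after Benjamini-Hochberg adjustment over 10 tests). With 2 pools against 2 the smallest p this test allows is 0.333. Without fed pool 4 or without fasted pool 2, with the regions chosen anew, the difference was -8.26 and -8.36 points.

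Fasting-specific H4K12bhb was found at few of the regions. It was called in both fasted and no fed pool at 82 of the 1367 (6.00%), against 3.37% of all 5781 fed-acetylated distal regions, and in both fed and no fasted pool at 35 (2.56%), against 3.11%. The pattern of run 10, fed pool 1 and fasted pool 2 only, was more frequent, with 182 regions (13.3%) against 10.6%. At 126 regions (9.22%) H4K12bhb was present in all 4 pools, against 21.5% of all 5781. It was in at least 1 fed pool at 771 (56.4%), against 66.8%, and in no pool at 329 (24.1%), against 20.7%. A region that gained an H3K9bhb call after fasting was thus in most cases not one that gained H4K12bhb in both runs.

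The sets ordered themselves by H4K12bhb in the same way in every pool. Always-marked regions had the mark at 86.0% and 70.8% in fed pools 1 and 4 and at 86.5% and 59.8% in fasted pools 2 and 5. Never-marked regions had it at 27.3%, 11.3%, 18.4% and 6.44% in the same order of pools. The 1367 regions lay between them in 4 of 4 pools, with a mean difference of -34.3 points from the always-marked and of 25.6 points from the never-marked regions. For both differences the two-sided exact sign-flip permutation p was 0.125, the smallest that 4 pools allow, and 0.312 after adjustment. Among regions of 2000 to 5000 bp the distance to the always-marked regions was -17.6 points, a smaller distance, and the distance to the never-marked regions was 20.9 points. Lengths of the sets were not matched within this band.

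The fed-to-fasted difference in H4K12bhb also ran differently in the 3 sets. It was 11.1 and 3.73 points in runs 10 and 11 at the 1367 regions, 0.549 and -10.9 points at the always-marked regions, and -8.90 and -4.91 points at the never-marked regions. The gap to the always-marked regions narrowed by 12.6 points from fed to fasted pools (10.6 in run 10 and 14.6 in run 11). The gap to the never-marked regions widened by 14.3 points (20.0 and 8.64). For each the exact permutation p was 0.333, the smallest possible, and 0.476 after adjustment, so neither passed a threshold that this design can reach. Both held their direction in each alternative run, though the second was 1.87 points without fasted pool 2. The sets were chosen by H3K9bhb calls in chromatin of the same pools, so these changes are not independent of the choice. Traits of a pool shared by both marks were not separated from them. Against all 5781 fed-acetylated distal regions, which include the 1367, the gap went from -12.7 points in fed to -4.69 points in fasted pools, and this change was not tested. At the 1281 regions where H3K27ac itself was called only after fasting, the H4K12bhb difference was 17.0 points (22.5 and 11.5 by run).

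**Figure D3:**
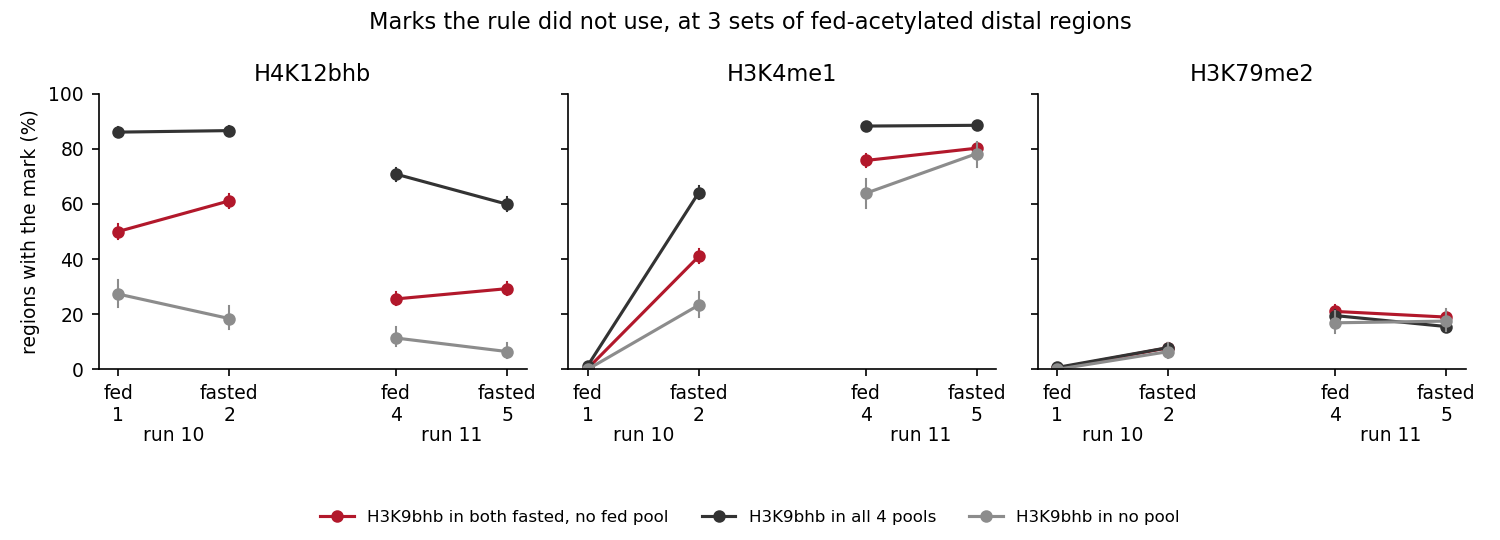
Share of regions with H4K12bhb, H3K4me1 or H3K79me2 (%, vertical axis) in each pool, for the 1367 regions (red), the 1457 always-marked (black) and the 326 never-marked regions (grey); lines join the pools of a run and bars are Wilson 95% intervals, which cover counting error only. In H4K12bhb the red points lie between the black and the grey in all 4 pools, at 50.0% and 61.1% in run 10 and 25.5% and 29.3% in run 11.

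H3K4me1, the enhancer mark, was present at most of the regions in the fed and the fasted pool of run 11, at shares close to those of all 5781. It was called at 1035 regions (75.7%) in fed pool 4 and 1096 (80.2%) in fasted pool 5, a difference of 4.46 points within run 11. In run 10 it was called at 4 regions (0.293%) in fed pool 1 and 560 (41.0%) in fasted pool 2. Of all 5781 it was called at 79.4% in fed pool 4, 82.7% in fasted pool 5, 0.623% in fed pool 1 and 46.4% in fasted pool 2. Fed pool 1 thus stood apart in this mark, and its H3K4me1 list of 309 peaks was far shorter than the others. With all 4 pools the fasted mean was 60.6% ± 27.7 and the fed mean 38.0% ± 53.3 (SD, n = 2), a difference of 22.6 points within the spread (exact permutation p = 0.667, adjusted 0.741). Without fed pool 1 it was -16.1 points, and without fasted pool 5 0.194 points. H3K4me1 in both fasted and no fed pool was found at 24 regions (1.76%), against 1.83% of all 5781, and in fed pool 4 and fasted pool 5 only at 437 (32.0%), against 30.3%. Neither share stood away from that of the 5781. At least 1 list had H3K4me1 at 1181 of the 1367 regions (86.4%), and 186 had none.

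Against the other sets, H3K4me1 at the 1367 regions differed by -11.2 points from the always-marked and by 7.95 points from the never-marked regions on average over pools. The exact sign-flip permutation p was 0.125 for each, 0.312 after adjustment. In fed pool 4 the always-marked, the 1367 and the never-marked regions had it at 88.2%, 75.7% and 63.8%, and in fasted pool 5 at 88.5%, 80.2% and 78.2%. Among regions of 2000 to 5000 bp the first difference was 1.93 points, a change of sign (exact sign-flip permutation p = 0.5), and the second only 0.613 points (p = 0.625). The second was also -0.551 points when H3K27ac was required in both fed pools, a rule under which 308 regions and 23 never-marked regions were left.

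The mark of transcribed bodies was found at a minority of the regions, at about the share of all 5781, and marks of repression at few. H3K79me2 was called at 5 regions (0.366%) in fed pool 1, 287 (21.0%) in fed pool 4, 107 (7.83%) in fasted pool 2 and 259 (18.9%) in fasted pool 5. At least 1 pool had it at 313 of the 1367 (22.9%) and at 21.3% of all 5781. Its pools again followed the run and the list length: the difference between conditions was 2.71 points (exact permutation p = 1), 7.46 in run 10 and -2.05 in run 11. In both fasted and no fed pool it was called at 4 regions (0.293%), against 0.156% of all 5781, and in fed pool 4 and fasted pool 5 only at 137 (10.0%), against 8.41%. H3K27me3 met 6 regions, 1 in fed pool 1, 2 in fasted pool 2 and 3 in fasted pool 5, a difference of 0.146 points (exact permutation p = 0.333). The 6 are 0.439% of the 1367, and 0.415% of all 5781 had the mark. The heterochromatin mark H3K9me3 met 1 region, on chromosome 11 from 20929384 to 20930495, in fasted pool 5. That region also had H4K12bhb in both fed pools and none in the fasted pools.

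How strongly a region was marked by H3K9bhb after fasting went with its H4K12bhb in all pools. When the 1367 regions were ranked by the lower of their 2 fasted H3K9bhb percentiles and divided into 4 rank groups of 341 or 342, H4K12bhb in fasted pool 2 went from 43.9% through 56.1% and 66.9% to 77.5%. In fasted pool 5 it was 17.3%, 22.8%, 33.1% and 43.9%. In fed pool 1 it was 38.6%, 48.8%, 54.3% and 58.2%, and in fed pool 4 16.4%, 26.0%, 30.2% and 29.5%. The fed pools, which had no H3K9bhb peak at any of these regions, followed the same order except for the last step in fed pool 4. H3K4me1 went with the ranking in fasted pool 2, with 35.1%, 38.0%, 42.8% and 48.0%. It did not in the pools of run 11, with 77.2%, 71.1%, 77.7% and 76.9% in fed pool 4 and 80.1%, 78.7%, 83.6% and 78.4% in fasted pool 5. Median length went over the same groups from 3015 to 4315 bp, and its part was not tested. No test is given, since regions are not replicates.

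Ranking by fasted H3K27ac gave a steeper order for both marks. From the lowest to the highest group, H4K12bhb went from 25.1% to 75.1% in fed pool 1, from 12.3% to 42.4% in fed pool 4, from 38.3% to 83.6% in fasted pool 2 and from 11.7% to 50.6% in fasted pool 5. H3K4me1 went from 54.4% to 93.0% in fed pool 4 and from 55.8% to 97.4% in fasted pool 5. Length went with this ranking too, from a median of 2324.5 to 5129.5 bp, with a Spearman's rho of 0.65 across the regions against 0.25 for the H3K9bhb ranking. Grouping the regions by length alone gave a similar order. From the shortest to the longest group, H4K12bhb in fed pool 1 went from 28.1% to 67.5%. H3K4me1 in fed pool 4 went from 52.9% to 95.0%. The parts of acetylation and length were not tested.

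**Figure D4:**
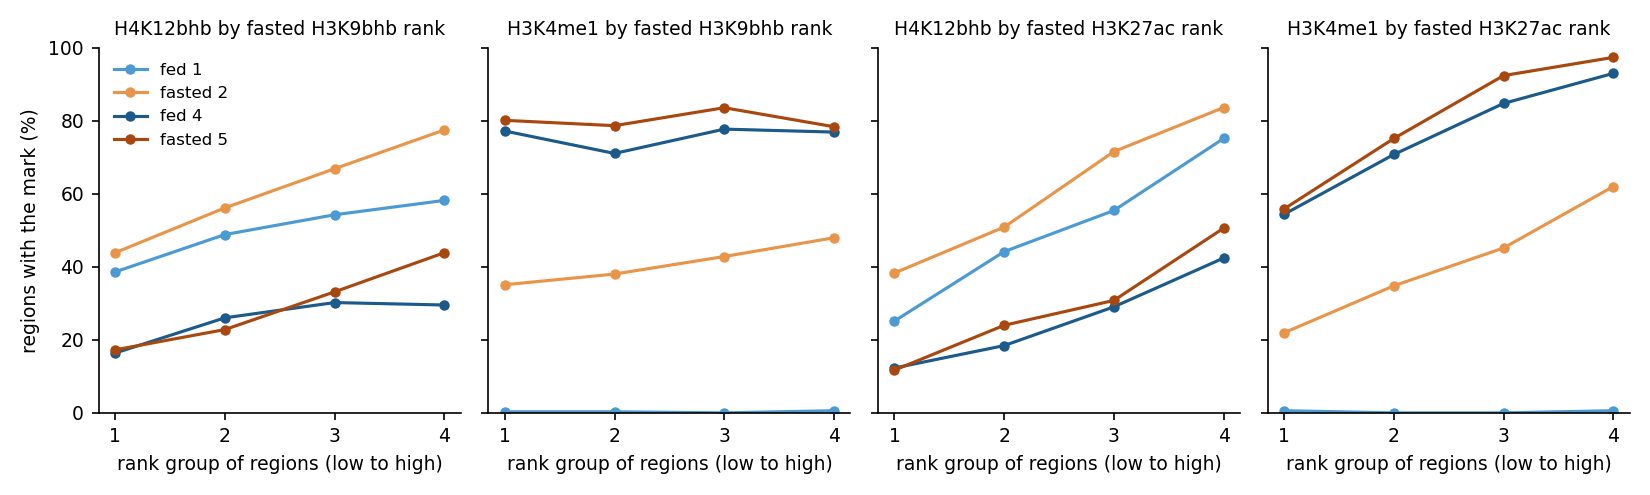
Share of regions with H4K12bhb or H3K4me1 (%, vertical axis) in 4 groups of the 1367 regions ranked from low to high by fasted H3K9bhb or by fasted H3K27ac (horizontal axis), with 1 line per pool. H4K12bhb in fasted pool 2 goes from 43.9% to 77.5% over the H3K9bhb groups, while H3K4me1 in fed pool 4 stays between 71.1% and 77.7%.

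The regions acetylated in both fed pools had the most H4K12bhb in each pool. These 308 regions had it at 59.7% and 32.1% in fed pools 1 and 4 and at 67.2% and 33.8% in fasted pools 2 and 5. The 840 regions acetylated in fed pool 1 only had 48.8% and 22.7% in the fed pools and 57.5% in fasted pool 2, and the 219 acetylated in fed pool 4 only had 40.6%, 26.9%, 66.2% and 31.5%. The fed pool that lacked H3K27ac still had H4K12bhb at some of these regions. Median lengths were 4098.5, 3304.5 and 3006 bp in the same order.

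The 8 regions that ranked highest in H3K9bhb of both fasted pools show how the marks combined at single places. The first, 9176 bp on chromosome 9 from 50970615 to 50979790, had H3K9bhb at percentiles 98.5 and 98.3 of fasted pools 2 and 5, covering 84.8% and 98.3% of the region. Its H3K27ac percentiles were 70.8 and 1.26 in fed pools 1 and 4 and 94.7 and 83.4 in fasted pools 2 and 5, so its acetylation in fed pool 4 was near the bottom of that list. H4K12bhb was present in all 4 pools, at percentiles 78.3, 64.1, 91.0 and 70.3 in the order fed 1, fed 4, fasted 2 and fasted 5. It therefore carried the other β-hydroxybutyryl mark in fed crypts without an H3K9bhb peak there.

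A second of these 8, on chromosome 7 from 134813216 to 134818990, ranked high in H3K27ac in 3 of the 4 pools. Its H3K27ac percentiles were 95.0 and 39.6 in fed pools 1 and 4 and 95.5 and 93.3 in fasted pools 2 and 5. Its H3K9bhb percentiles were 96.0 and 95.0 in the fasted pools. H4K12bhb was in all 4 pools at 46.5, 75.0, 88.1 and 83.1, in the order fed 1, fed 4, fasted 2 and fasted 5.

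By contrast, a short region of 1708 bp on chromosome 2 from 167224797 to 167226504 had H3K9bhb percentiles of 98.2 and 96.3 with little else. Its H3K27ac percentile was 20.9 in fed pool 4, 61.4 in fasted pool 2 and 10.4 in fasted pool 5, with no peak in fed pool 1. H4K12bhb was called in fasted pool 2 only, and neither H3K4me1 nor H3K79me2 in any pool. A region of 1948 bp on chromosome 5 from 149810667 to 149812614 had H3K9bhb percentiles of 94.4 and 95.4 and likewise no H3K4me1. Its H4K12bhb, called in fasted pool 2 only, was at percentile 88.3 and covered 80.7% of the region, against percentile 47.8 at the chromosome 2 region. Fed H3K27ac was called there in fed pool 1 only, at percentile 0.260. Over the 8 regions, H4K12bhb was called in 8 in fasted pool 2 and in 5 in each of the other pools. All 5781 had it at 63.8% in fasted pool 2, 61.2% in fed pool 1, 39.8% in fed pool 4 and 35.9% in fasted pool 5.

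**Figure D5:**
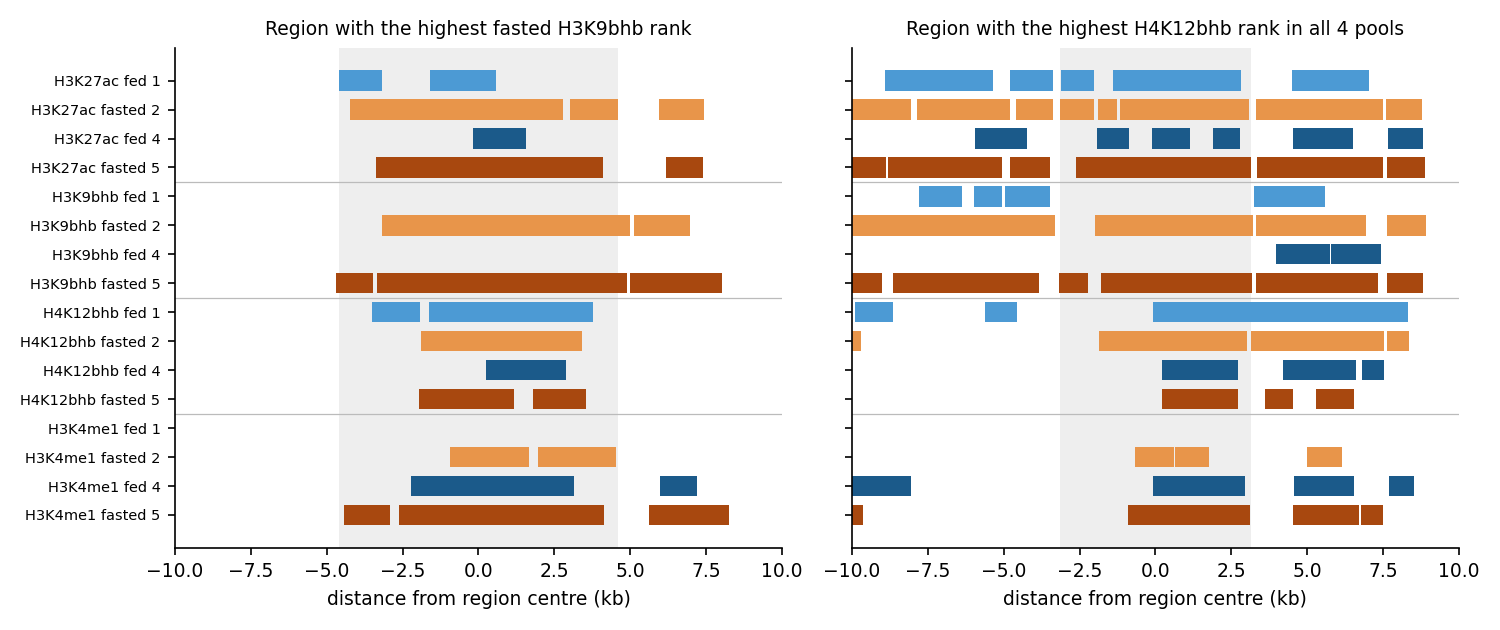
Peaks of 4 marks in the 4 pools around 2 regions (grey), by distance from the region's centre (kb, horizontal axis); blue bars are fed and orange bars fasted peaks. On the left is the region with the highest fasted H3K9bhb rank, with percentiles 98.5 and 98.3, and on the right the one with the highest H4K12bhb rank in all 4 pools, where fed H3K9bhb peaks lie outside the grey interval on both sides.

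Among the 308 regions acetylated in both fed pools, 8 were singled out by their fed H3K27ac rank. The region on chromosome 1 from 89446891 to 89452155 led them, with H3K27ac percentiles of 96.5 and 94.2 in fed pools 1 and 4 and 73.1 and 79.1 in fasted pools 2 and 5. Its H3K9bhb percentiles were 93.7 and 79.7 in the fasted pools. It had H4K12bhb at 64.0 in fed pool 1, none in fed pool 4, and 71.9 and 79.7 in the fasted pools, and H3K79me2 in fed pool 4 and fasted pool 5. The region on chromosome 1 from 134248844 to 134252462 differed from it. Its H3K27ac ranked 85.4 and 98.4 in fed crypts and only 4.65 and 45.0 in fasted crypts, its H3K9bhb 43.4 and 2.10, and no list had H4K12bhb, H3K4me1 or H3K79me2 there. All 5781 had H4K12bhb at 61.2% and 39.8% in fed pools 1 and 4 and at 63.8% and 35.9% in fasted pools 2 and 5. Of the 8, it was called at 6, 2, 7 and 4 in the same order of pools. Others among them were on chromosome 4 from 117889304 to 117895217, with fed H3K27ac percentiles of 95.2 and 86.1 and H4K12bhb in all pools, and on chromosome 8 from 47487590 to 47490829, with fasted H3K9bhb percentiles of 82.3 and 97.9.

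At 82 regions both β-hydroxybutyryl marks were called in both fasted and neither fed pool, and 6 of these were singled out by their H4K12bhb rank. The first lay on chromosome 11 from 117013145 to 117017799, with H4K12bhb percentiles of 76.2 and 74.8 and H3K9bhb percentiles of 84.0 and 75.9 in fasted pools 2 and 5. Its H3K27ac was weak in both fed pools, at percentiles 30.7 and 37.4 and with 22.5% and 18.5% of the region covered, against 74.8% and 100% in the fasted pools. The next, on chromosome 2 from 164713437 to 164717292, had H4K12bhb percentiles of 70.2 and 81.5, and its fed acetylation was 1 peak of fed pool 1 at percentile 6.34. A region on chromosome 15 from 84534378 to 84539061 had H4K12bhb percentiles of 81.9 and 68.2 and H3K9bhb percentiles of 80.1 and 81.2. Fed H3K27ac was called at 4 of the 6 regions in fed pool 1 and at 3 in fed pool 4, against 88.1% and 49.0% of all 5781. H3K4me1 was called at 5 of the 6 in fed pool 4, at 5 in fasted pool 5 and at 0 in fed pool 1. All 5781 had it at 79.4%, 82.7% and 0.623% in the same order of pools, so these counts did not set the 6 apart. The region on chromosome 7 from 142895100 to 142898420 stood apart in H3K79me2, with a percentile of 99.9 in fed pool 4, 91.8 in fasted pool 2 and 76.0 in fasted pool 5.

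The opposite arrangement, H4K12bhb in all 4 pools and H3K9bhb in the fasted pools only, was found at 126 regions. The highest-ranked of these, on chromosome 1 from 193460099 to 193466402, had H4K12bhb percentiles of 98.5 and 75.7 in fed pools 1 and 4 and 91.7 and 77.6 in fasted pools 2 and 5. Its fed H3K27ac percentiles were 96.9 and 56.8, its fasted ones 90.8 and 89.0, and its fasted H3K9bhb percentiles were 94.0 and 96.4. Fed H3K9bhb peaks lay on both sides of this region in fed pool 1 and on its right in fed pool 4, and not on it. Measured from its centre the region ran from -3151 to 3152 bp. The nearest fed pool 1 peaks ended at -3473 bp and began at 3244 bp, so they lay close to its edges. The region on chromosome 13 from 44596502 to 44600200 had H4K12bhb percentiles of 75.5, 83.9, 74.3 and 66.2 in the order fed 1, fed 4, fasted 2 and fasted 5. Its H3K27ac percentiles were 52.2 and 80.1 in the fed pools. The 6 regions singled out here all had H3K4me1 in fed pool 4 and fasted pool 5, against 79.4% and 82.7% of all 5781.

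The 1367 regions were spread over the genome. They made up from 18.0% (chromosome 16) to 28.8% (chromosome 8) of the 5781 fed-acetylated distal regions of an autosome, and 2 of 6 on chromosome X. When regions up to 20000 bp apart were joined, 1084 stood alone, 109 formed pairs, 16 chains held 3, 3 chains held 4 and 1 held 5. The last, chosen after its values were seen, ran over 21240 bp of chromosome 5 from 9027607 to 9048846. On chromosome 6 from 71097691 to 71125428 and from 91497658 to 91542683, 4 regions each lay together. Neighbouring regions are not independent measurements.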

How the data were processed

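The deposited files are 32 peak lists, called per library, from 36 samples; the 4 input samples had no list analysed here. Their values are a score per peak that the authors' peak caller (MACS 1, against the input of the same pool, per the file names) gave as -10 times the log10 of p, with a lowest value of 50. Alignment was to mm9, and Bowtie 1.1.2, SAMtools 1.9, FastQC and deepTools 1.5.11 were among the tools, per the submitters' processing notes. The sources used here give neither filters nor read depth. Scores were ranked within a list only.

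Groups and pool numbers came from the labels. An overlap of 1 bp counted as a call. Scripts ran in Python 3.11.15 with scipy 1.17.1 for tests, pandas 2.3.3 and numpy 2.4.6 for intervals, and matplotlib 3.10.9 for plots. The interval code was tested on simulated data, and bedtools 2.31.1 gave the same values in 6 of 6 checks. Shares of regions were compared over pools by two-sided exact permutation, or by exact sign-flip permutation of differences within pools, with Benjamini-Hochberg adjustment over 10 tests. Pools are the replicates, and regions are not.

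The regions, comparison sets and tests were chosen with earlier results of these data known. Named regions were the 8 with the highest fasted H3K9bhb rank, the 8 with the highest H3K27ac rank in both fed pools, the 6 with the highest H4K12bhb rank among those called in both fasted and no fed pool, the 6 with the highest H4K12bhb rank in all 4 pools, those nearest the limits of the rule, and any with H3K27me3 or H3K9me3 where at most 5 had it. A rank is the lowest percentile over the pools named. Alternatives were a score of 100 or more, equal list lengths, other merging, overlap, acetylation, distance and length rules, each pool left out and each run alone. No fed H3K9bhb within 1000 bp and pairing of pools by run were chosen after seeing the data. Genes and sequences were not analysed here, because the gene tables used another build.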

Additional observations from a re-analysis of the deposited data

Results flagged for a closer look

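The fed-to-fasted difference in the share of regions with H4K12bhb ran in opposite directions at the 1367 regions and at the fed-acetylated distal regions without H3K9bhb in any pool. It was 11.1 and 3.73 percentage points in runs 10 and 11 at the former and -8.90 and -4.91 points at the latter, a difference of 14.3 points between the sets (exact permutation p = 0.333, the smallest that 2 pools against 2 allow). Both sets were chosen by H3K9bhb calls in chromatin of the same pools, so this difference is not independent of the choice. The difference between fasted and fed pools in H3K79me2 at the 1367 regions was 7.46 points in run 10 and -2.05 points in run 11, 9.51 points apart. Each run has 1 pair of pools, so this was not tested, and the run 10 fed list of this mark held 571 peaks.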

How the results depend on the processing

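The number of regions depended on the rule's settings. It was 197 with equal numbers of top-scoring peaks, 842 when H3K27ac peaks were merged across gaps of 1000 bp, 308 with H3K27ac in both fed pools, 884 among regions of 2000 to 5000 bp, 3123 in run 10 alone, and from 1075 to 2830 with 1 pool left out. Counts close to the main one did not mean the same regions. With a score of 100 or more 1024 regions met the rule, and 22.0% of them lay on the 1367. In run 11 alone it was 1572 regions and 32.1%, and with 50% of the region covered 997 regions and 30.0%.

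Over 17 alternatives, 159 of 170 values of the tested results kept their direction, 10 reversed, and 1, the H3K27me3 difference with equal numbers of top-scoring peaks, was 0. The fasted minus fed difference in H4K12bhb at the regions was -1.59 points in run 11 alone and ran from -8.36 to 20.4 with 1 pool left out. That in H3K4me1 ran from -16.1 to 62.6, and that in H3K79me2 from -6.93 to 12.2, with -0.251 at 50% coverage and -3.18 in run 11 alone. H3K4me1 minus that of the never-marked regions was -0.551 with H3K27ac in both fed pools, and minus that of the always-marked regions 1.93 among regions of 2000 to 5000 bp. The cause was not tested. The 4 H4K12bhb comparisons with these sets kept their direction throughout: the narrowing gap to the always-marked regions was 4.48 to 18.4 points, the widening gap to the never-marked regions 1.87 to 24.3, and the mean distances -42.8 to -17.6 and 15.0 to 35.6. In each alternative the sets still rested on H3K9bhb calls of the same pools. No p can fall below 0.125 in this design, so no result passed or lost a threshold. No paired analysis was possible because fed pools (1 and 4) and fasted pools (2 and 5) share no replicate number. Pairing by the runs of the file names, chosen after seeing the data, left each difference as it was. The exact sign-flip permutation p over 2 runs was 1 for H3K79me2 and 0.5, the smallest possible, for H4K12bhb, H3K4me1, H3K27me3 and the 2 changing gaps. Read depth is unknown, so a missing peak may be a mark that was not detectable.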
